A study of Mus musculus with 4 samples.

Results

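The genes described here were the IkB family genes Nfkbia, Nfkbid and Nfkbiz, the ubiquitin editor Tnfaip3 and the early response gene Ier3. The others were the NF-kB subunits Rel and Nfkb1 and the mRNA decay genes Zfp36, Zfp36l1 and Zfp36l2. All were chosen by name, as 10 of the 31053 genes in the files, and all 10 were present. Their levels were followed in T cells from 2 borders of the brain, meninges and choroid plexus, in female C57BL/6 mice that were young (10 weeks old) or aged (18 months old). The T cells, CD4 and CD8, had been FACS-sorted from digested tissue, and each of the 4 libraries pooled 5 mice and was made with a 5′ single-cell kit. No library carried a genetic change or a treatment, so age and tissue were the only labelled differences. With 1 library per condition there was no replicate and no test, and no p-value is given.

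NF-kB dimers are held in the cytoplasm by inhibitors of the IkB family until antigen receptors or cytokine receptors trigger the decay of these inhibitors. The freed dimers then switch on genes that include their own inhibitors, which makes a negative feedback loop. Nfkbia encodes IkB alpha, the inhibitor that is resynthesised after each round of activation. Nfkbid and Nfkbiz encode IkB proteins of the nucleus that modulate the target genes, and Tnfaip3 encodes A20, a ubiquitin editing enzyme that shuts down the upstream signal. Rel encodes c-Rel, the subunit most tied to lymphocyte activation, and Nfkb1 encodes p105, the precursor of p50. Zfp36, Zfp36l1 and Zfp36l2 encode zinc finger proteins that bind AU-rich elements and bring about the decay of short-lived mRNAs, cytokine mRNAs among them.

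The promoters shown here were chosen among those of these genes that carry letters of the NF-kB consensus. RefSeq windows (GRCm38.p6) that reach from 250 bases before to 50 bases after a start site were found for 7 of the 10 genes, in 10 entries. Both strands were searched for the NF-kB consensus, for the AP-1 site TGANTCA and for the CArG box. The NF-kB consensus was found in 5 of the 10 entries, of 5 genes (Nfkbia, Nfkbid, Tnfaip3, Rel and Ier3), and in 4.51% of all 32851 windows of this length. The entries of Zfp36 and Zfp36l1 held none. Zfp36 held a CArG box, present in 1.63% of all windows, at 58 to 49 bases before its start, and Tnfaip3 and Zfp36l1 each held an AP-1 site, present in 7.81%. A match is only a description of letters. The bases before the start are given below, 5′ to 3′ on the strand of the gene. Capitals mark matches to the NF-kB consensus and, for Tnfaip3, also an AP-1 site.
Nfkbia, 250 bases, chr12:55492648-55492897, minus strand: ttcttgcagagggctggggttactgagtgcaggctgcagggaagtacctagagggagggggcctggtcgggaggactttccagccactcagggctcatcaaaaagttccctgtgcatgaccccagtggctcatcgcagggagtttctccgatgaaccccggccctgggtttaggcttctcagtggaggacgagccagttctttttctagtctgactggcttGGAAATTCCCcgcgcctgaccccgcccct
Nfkbid, 250 bases before an internal start, chr7:30422156-30422405, plus strand: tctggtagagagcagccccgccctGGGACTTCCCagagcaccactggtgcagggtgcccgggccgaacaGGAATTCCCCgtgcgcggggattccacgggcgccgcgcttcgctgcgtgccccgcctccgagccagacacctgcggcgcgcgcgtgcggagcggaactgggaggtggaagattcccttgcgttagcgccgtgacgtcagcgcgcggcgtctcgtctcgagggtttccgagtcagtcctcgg
Tnfaip3, 137 bases, chr10:19015411-19015547, minus strand: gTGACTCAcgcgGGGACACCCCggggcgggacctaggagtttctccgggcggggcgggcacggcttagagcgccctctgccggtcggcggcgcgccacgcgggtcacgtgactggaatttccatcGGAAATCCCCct
Rel, 250 bases, chr11:23770970-23771219, minus strand: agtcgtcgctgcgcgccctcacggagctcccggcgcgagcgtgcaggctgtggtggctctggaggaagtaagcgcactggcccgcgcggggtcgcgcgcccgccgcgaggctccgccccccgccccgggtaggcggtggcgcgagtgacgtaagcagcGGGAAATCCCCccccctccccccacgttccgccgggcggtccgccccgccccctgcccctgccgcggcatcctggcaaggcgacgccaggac
The matches of Nfkbia and Rel lay 29 and 92 bases before the start. The pair of Tnfaip3 lay 125 and 12 bases before it, and the pair of Nfkbid 226 and 181 bases before it. The capitals of Rel hold overlapping matches. The Tnfaip3 stretch begins at the base before its AP-1 site, outside the exons of the annotation. The RefSeq starts used for Tnfaip3, Zfp36 and Ier3 also lie inside the genes as annotated below.

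In the GENCODE vM21 annotation of GRCm38 (mm10), all 10 are protein-coding genes. Nfkbia (ENSMUSG00000021025) lies at chr12:55489410-55492647, Nfkbid (ENSMUSG00000036931) at chr7:30421732-30428746, Nfkbiz (ENSMUSG00000035356) at chr16:55811375-55838899 and Tnfaip3 (ENSMUSG00000019850) at chr10:19000910-19015657. Ier3 (ENSMUSG00000003541) lies at chr17:35821684-35822923, Rel (ENSMUSG00000020275) at chr11:23736847-23770970 and Nfkb1 (ENSMUSG00000028163) at chr3:135584655-135691547. Zfp36 (ENSMUSG00000044786) lies at chr7:28376784-28380253, Zfp36l1 (ENSMUSG00000021127) at chr12:80107754-80113013 and Zfp36l2 (ENSMUSG00000045817) at chr17:84183931-84187947. Each of the Zfp36 family genes overlaps a transcript annotated on the opposite strand, and the strand setting of the counting is not given in the sources used here.

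The 4 libraries held 718 to 1695 cells and 2295950 to 4262917 UMIs (unique molecular identifiers, 1 per captured molecule). After filters, 605 to 1408 T cells were left per library, with medians of 2312.5 to 3198 UMIs per cell. T cells with a Cd4 UMI and no Cd8a or Cd8b1 UMI were taken as CD4, the converse as CD8, and those with none of the 3 genes as neither, which can include CD4 and CD8 T cells whose transcript was missed. The resulting 12 pools held 160 to 735 cells, and 0 to 3 barcodes were shared between any pair of libraries. A UMI of Ccr7 or Lef1, genes of naive T cells, was found in 77.2% and 77.9% of young but 21.7% and 22.9% of aged T cells, meninges first. UMIs were summed per pool and scaled to CPM (counts in 1e6 UMIs of the pool). As 1 UMI stands for 1 molecule, CPM were not divided by gene length. Intervals are exact 95% Poisson intervals of the summed count and cover counting error only, not the variation between mice or between cells. They take UMIs as independent, so they are too narrow for genes whose UMIs gather in some cells. With cells thinned to equal depth, the variance over mean of Nfkbia was 2.33 in young and 2.99 in aged meningeal CD4 T cells. That of Tnfaip3 was 0.909 and 1.59, where Poisson counts would give 1. Calls of intervals apart carry the same limit. In a summed pool, fewer cells that use a gene and less RNA of it per cell cannot be told apart.

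Over the 12 pools, Nfkbia had the highest level, between 128 and 980 CPM with a median of 415. Zfp36l2 followed with 174 to 414 CPM (median 267), then Zfp36l1 with 66.2 to 247 (median 135) and Zfp36 with 35.7 to 447 (median 113). Tnfaip3 ranged from 7.88 to 285 CPM (median 81.4) and Nfkbid from 12.1 to 187 (median 62.8). Rel and Nfkb1 ranged from 31.1 to 90.3 and from 33.1 to 91.2 CPM. Nfkbiz ranged from 6.04 to 77 CPM and Ier3 from 0 to 44.9 CPM. The widest span was that of Tnfaip3, whose highest pool was 36.2 times its lowest, and the narrowest that of Zfp36l2, at 2.38 times.

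**Figure D1:**
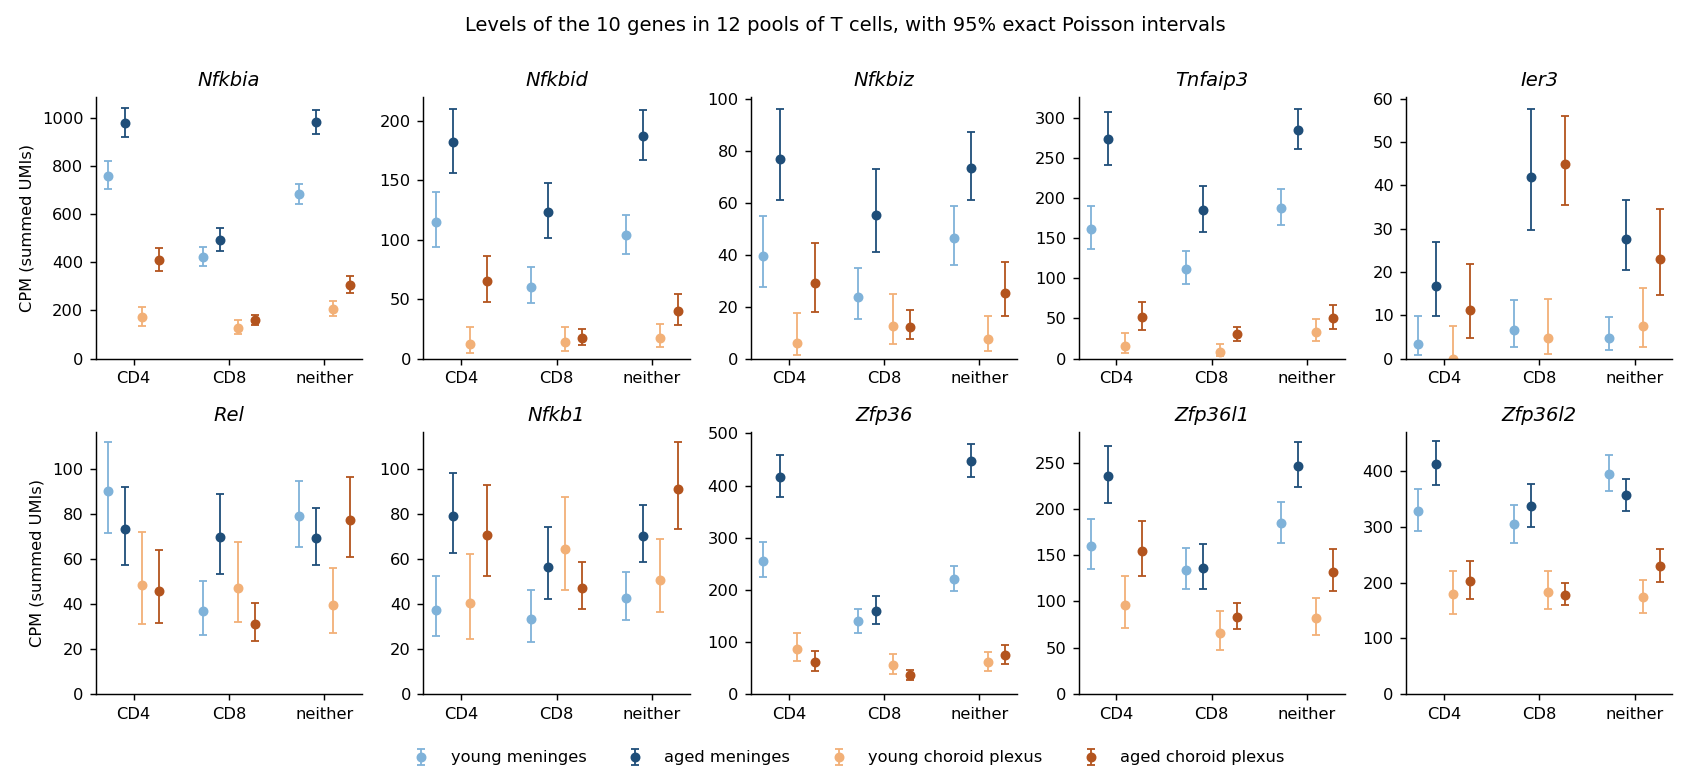
Level of each gene (y axis, CPM of summed UMIs, from 0) in CD4, CD8 and neither T cells (x axis) of the 4 libraries (colours); bars are exact 95% Poisson intervals. Both meningeal libraries lie above both choroid plexus libraries in all 3 classes for Nfkbia, Tnfaip3, Zfp36 and Zfp36l2. Ier3 is higher in the aged than in the young libraries, with 42 and 44.9 CPM in aged CD8 T cells, though not all of its intervals are apart.

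The order of the pools followed the tissue for most of the genes. For Nfkbia, Tnfaip3, Zfp36 and Zfp36l2, each of the 6 meningeal pools lay above each of the 6 choroid plexus pools. The lowest meningeal and highest choroid plexus levels were 423 and 407 CPM for Nfkbia, 112 and 51.3 for Tnfaip3, 139 and 86.6 for Zfp36, and 305 and 229 for Zfp36l2. At this border the intervals were apart for Tnfaip3, Zfp36 and Zfp36l2 but overlapped for Nfkbia. Most neighbours in the order did not differ beyond their intervals. Of the 11 neighbouring pairs, 4 were apart for Nfkbia, 3 each for Tnfaip3 and Zfp36, 2 for Nfkbid, 1 for Zfp36l2, and 0 for Nfkbiz, Ier3, Rel, Nfkb1 and Zfp36l1.

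The first question was how T cells of the choroid plexus, the site that makes cerebrospinal fluid, differed from those of the meninges, the membranes around the brain, at the same age. Nfkbia, Nfkbid, Tnfaip3 and the 3 Zfp36 family genes were lower in the choroid plexus in each of the 6 comparisons (3 classes at 2 ages), with intervals apart. Nfkbiz was lower with intervals apart in 5, all but young CD8 T cells. Rel was lower with intervals apart in 2, and Nfkb1 and Ier3 in 0. A member was called past the rule of size when its log2 ratio of CPM + 10 was at least 1 either way (2-fold) and the higher pool held at least 20 UMIs.

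Nfkbia, the main feedback inhibitor, stood at 758 CPM in young meningeal CD4 T cells against 171 CPM in those of the choroid plexus, and at 978 and 407 CPM in aged ones. In CD8 T cells it stood at 423 and 128 CPM in young and at 492 and 159 CPM in aged mice. In T cells with neither marker it stood at 683 and 206 CPM in young and at 980 and 305 CPM in aged mice. The choroid plexus values were the lower ones throughout, with log2 ratios of choroid plexus over meninges between -2.08 and -1.24.

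Tnfaip3 (A20) stood at 161 (136 to 190) CPM in young meningeal CD4 T cells and at 16.1 (6.95 to 31.7) CPM in those of the young choroid plexus. In aged CD4 T cells the values were 273 and 51.3 CPM. In CD8 T cells they were 112 and 7.88 CPM in young and 185 and 30 CPM in aged mice. In T cells with neither marker they were 188 and 33.5 CPM in young and 285 and 50.1 CPM in aged mice. Its log2 ratios, -2.77 to -2.19, were past the rule in all 6 comparisons, as were those of Nfkbia, Nfkbid and Zfp36.

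Nfkbid, whose nuclear IkB protein is also called IkB NS, had log2 ratios between -2.5 and -1.35. It stood at 115 and 12.1 CPM in young CD4 T cells and at 182 and 65.1 CPM in aged ones, meninges first. In CD8 T cells the levels were 60.5 and 14.2 CPM in young and 123 and 17.3 CPM in aged mice. Nfkbiz had log2 ratios of -1.7 to -1.15 where its intervals were apart, but its choroid plexus pools held only 3 to 25 UMIs. In young CD8 T cells it stood at 23.7 (15.3 to 34.9) and 12.6 (5.44 to 24.8) CPM, which overlap.

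Among the decay factors, Zfp36 (tristetraprolin) had log2 ratios of -1.46, -1.19 and -1.7 in young CD4, CD8 and neither T cells and of -2.59, -1.89 and -2.44 in aged ones. In aged CD4 T cells it stood at 417 (378 to 459) CPM in meningeal and 60.9 (44.3 to 81.8) CPM in choroid plexus cells. Zfp36l1 and Zfp36l2 were lower in the choroid plexus by less, with log2 ratios of -1.08 to -0.58 and of -1.14 to -0.61. Both were past the rule in the young neither class alone.

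The NF-kB subunits differed less between the tissues. Nfkb1 had overlapping intervals in 5 of the 6 comparisons, and in young CD8 T cells it was higher in the choroid plexus, at 64.6 (46.4 to 87.7) against 33.1 (23.1 to 46.1) CPM. Rel stood at 90.3 and 48.3 CPM in young CD4 T cells, which overlap, at 79 (65.4 to 94.5) and 39.7 (27.1 to 56) CPM in young T cells with neither marker, and at 69.6 (53.5 to 89.1) and 31.1 (23.4 to 40.6) CPM in aged CD8 T cells, meninges first. Ier3 stood at 42 and 44.9 CPM in aged CD8 T cells of the 2 tissues.

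**Figure D2:**
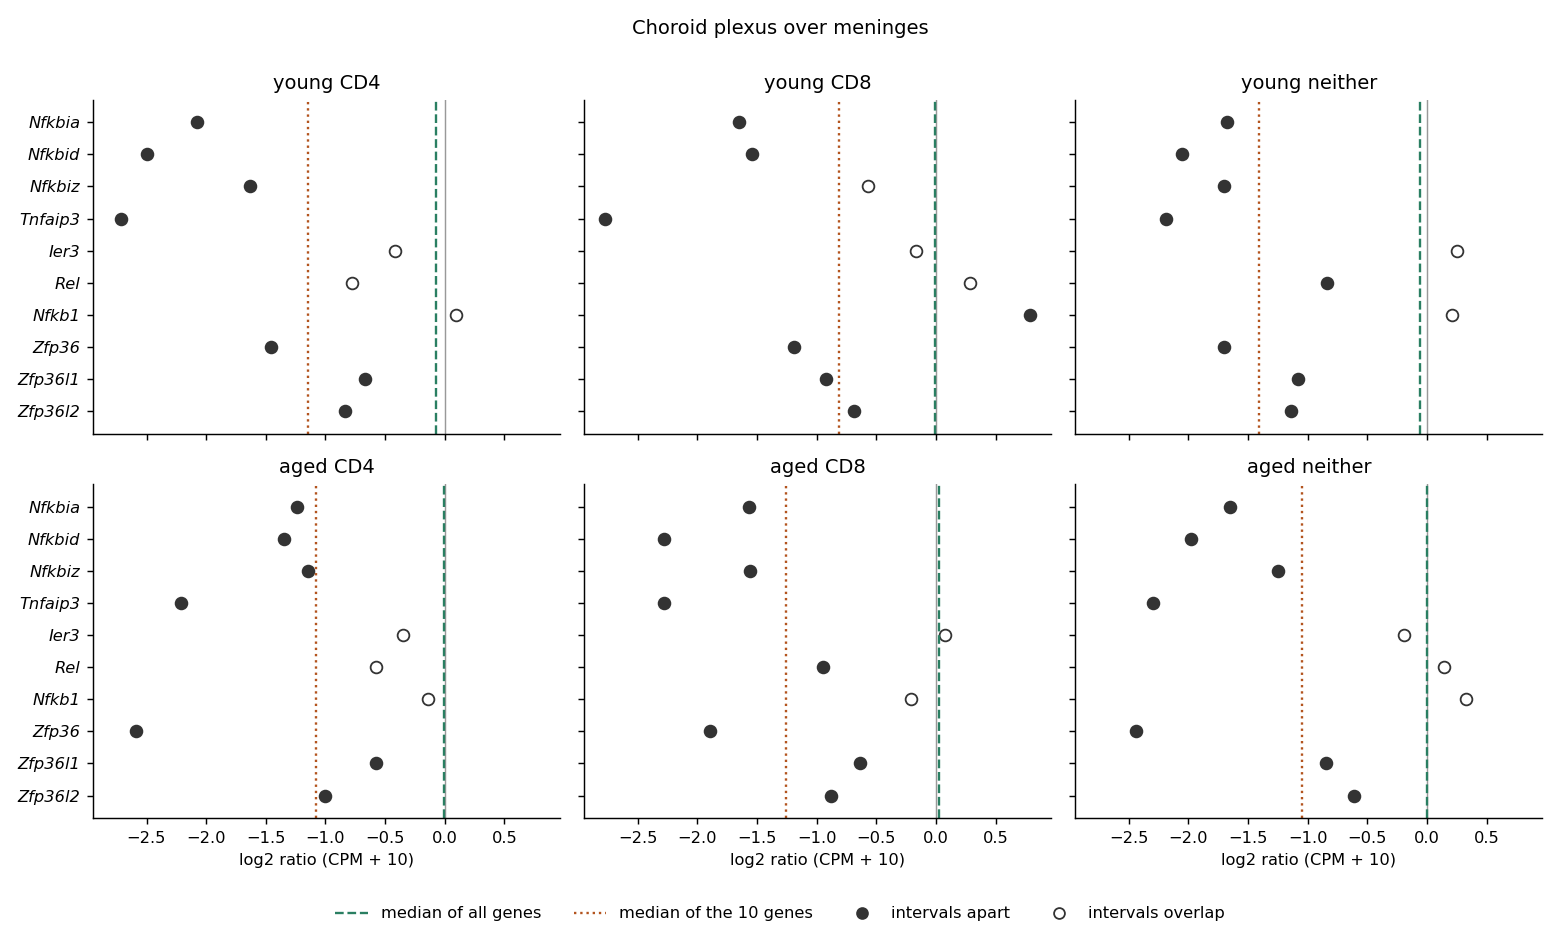
Log2 ratio of choroid plexus over meninges (x axis, from CPM + 10) for each gene (y axis) in 6 comparisons; filled points have intervals apart, open points overlap, and lines mark the medians of the 10 genes and of all genes. The inhibitors, Tnfaip3 and the Zfp36 family lie left of 0 in every panel, and Nfkb1 lies at 0.79 in young CD8 T cells.

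The number of members past the rule and lower in the choroid plexus was 5, 4 and 7 in young CD4, CD8 and neither T cells and 5, 5 and 5 in aged ones. Of all genes with 20 or more UMIs in the higher pool, 3.07%, 1.68% and 1.62% were so in young and 1.95%, 0.939% and 1.24% in aged T cells. Members with intervals apart and lower numbered 7, 6 and 8 in young and 7, 8 and 7 in aged T cells, against 4.89%, 4.15%, 4.97%, 4.12%, 2.97% and 3.92% of genes. The share of genes with intervals apart depends on their UMI counts. The median log2 ratio of the 10 genes was -1.15, -0.81 and -1.41 in young and -1.08, -1.26 and -1.05 in aged T cells, beside -0.07, -0.01, -0.06, -0.01, 0.03 and 0 for all genes.

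A list of 15 early response and dissociation genes (Fos, Jun, heat shock genes and others) was lower in the choroid plexus as well. Its summed level was 3090 to 7200 CPM in the 6 meningeal pools and 889 to 1830 CPM in the 6 choroid plexus pools, and 12 to 15 of its 15 genes had a UMI in each pool. Of the list, 11 of 13 tested genes in young CD4 and 12 of 15 in aged neither T cells were past the rule and lower in the choroid plexus. A UMI of Fos, Fosb or Egr1 was found in 21.7 to 37.8% of meningeal and 2.5 to 8.26% of choroid plexus T cells per class. When these cells were left out, a step chosen after seeing the data, the median log2 ratios of the 10 genes were -1.29 to -0.73. In aged CD4 T cells the count past the rule was then 2 in place of 5, with log2 ratios of -0.73 for Nfkbia, -1.8 for Tnfaip3 and -1.7 for Zfp36. What the handling of the tissue contributes to the difference was not tested.

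After each cell was thinned to 1000 UMIs, T cells with a Fos UMI in the aged meninges stood at 1500 (1340 to 1670) CPM of Nfkbia, 449 (364 to 548) CPM of Tnfaip3 and 972 (845 to 1110) CPM of Zfp36. The T cells without one stood at 795 (744 to 849), 238 (211 to 269) and 274 (244 to 306) CPM. In the aged choroid plexus, T cells without a Fos UMI were lower than those of the aged meninges. They held 282 (251 to 317) CPM of Nfkbia, 47.7 (35.3 to 63) CPM of Tnfaip3 and 53.5 (40.3 to 69.6) CPM of Zfp36. This split does not take the early response out, since a cell without a Fos UMI at this depth can still hold other early response RNA. In the young meninges, cells without a Fos UMI held 615, 184 and 201 CPM of the same genes, and in the young choroid plexus 216, 20.9 and 71.4 CPM. Tnfaip3 in young meningeal cells with a Fos UMI stood at 156 (93.8 to 243) CPM, an interval that overlaps that of cells without one (156 to 215). Only 9 and 12 choroid plexus T cells had a Fos UMI after thinning.

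The second question was how the genes differed between aged and young T cells of the same tissue. In the meninges, most members were somewhat higher with age. Their median log2 ratio of aged over young was 0.65 in CD4, 0.65 in CD8 and 0.57 in neither T cells, beside 0.05, 0.05 and 0.04 for all genes. In CD4 T cells 8 of 10 members were higher with intervals apart and 0 were lower, and in CD8 and neither T cells 5 and 8 were higher and 0 lower. Of all genes, 9.91%, 9.63% and 11.6% were higher with intervals apart in these 3 comparisons. The differences were small. Only 0, 1 and 1 members passed the rule of size, where 4.23%, 3.2% and 3.44% of genes did, and the one that passed was Ier3. The early response list was higher with age in the same pools, at 4820 and 6710 CPM in CD4, 3090 and 3680 CPM in CD8 and 4620 and 7200 CPM in neither T cells, young first. Without cells with a Fos, Fosb or Egr1 UMI, the median of the 10 genes in meningeal CD4 T cells was 0.32 in place of 0.65.

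In meningeal CD4 T cells, Nfkb1 stood at 37.2 (25.6 to 52.3) CPM in young and 79 (62.6 to 98.3) CPM in aged mice, a log2 ratio of 0.91. Nfkbiz was at 39.5 and 77 CPM (0.81), Tnfaip3 at 161 and 273 (0.72) and Zfp36 at 256 and 417 (0.68). Rel, with 90.3 and 73.1 CPM, was the one member with a log2 ratio below 0. In meningeal CD8 T cells, Nfkbiz (23.7 and 55.2 CPM), Nfkbid (60.5 and 123), Rel (36.9 and 69.6) and Tnfaip3 (112 and 185) were, beside Ier3, higher with age, intervals apart. Nfkbia (423 and 492 CPM), Zfp36 (139 and 159), Zfp36l1 (134 and 136) and Zfp36l2 (305 and 337) overlapped there. In T cells with neither marker, Zfp36 had the highest ratio after Ier3, with 220 (197 to 245) CPM in young and 447 (416 to 480) CPM in aged mice.

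**Figure D3:**
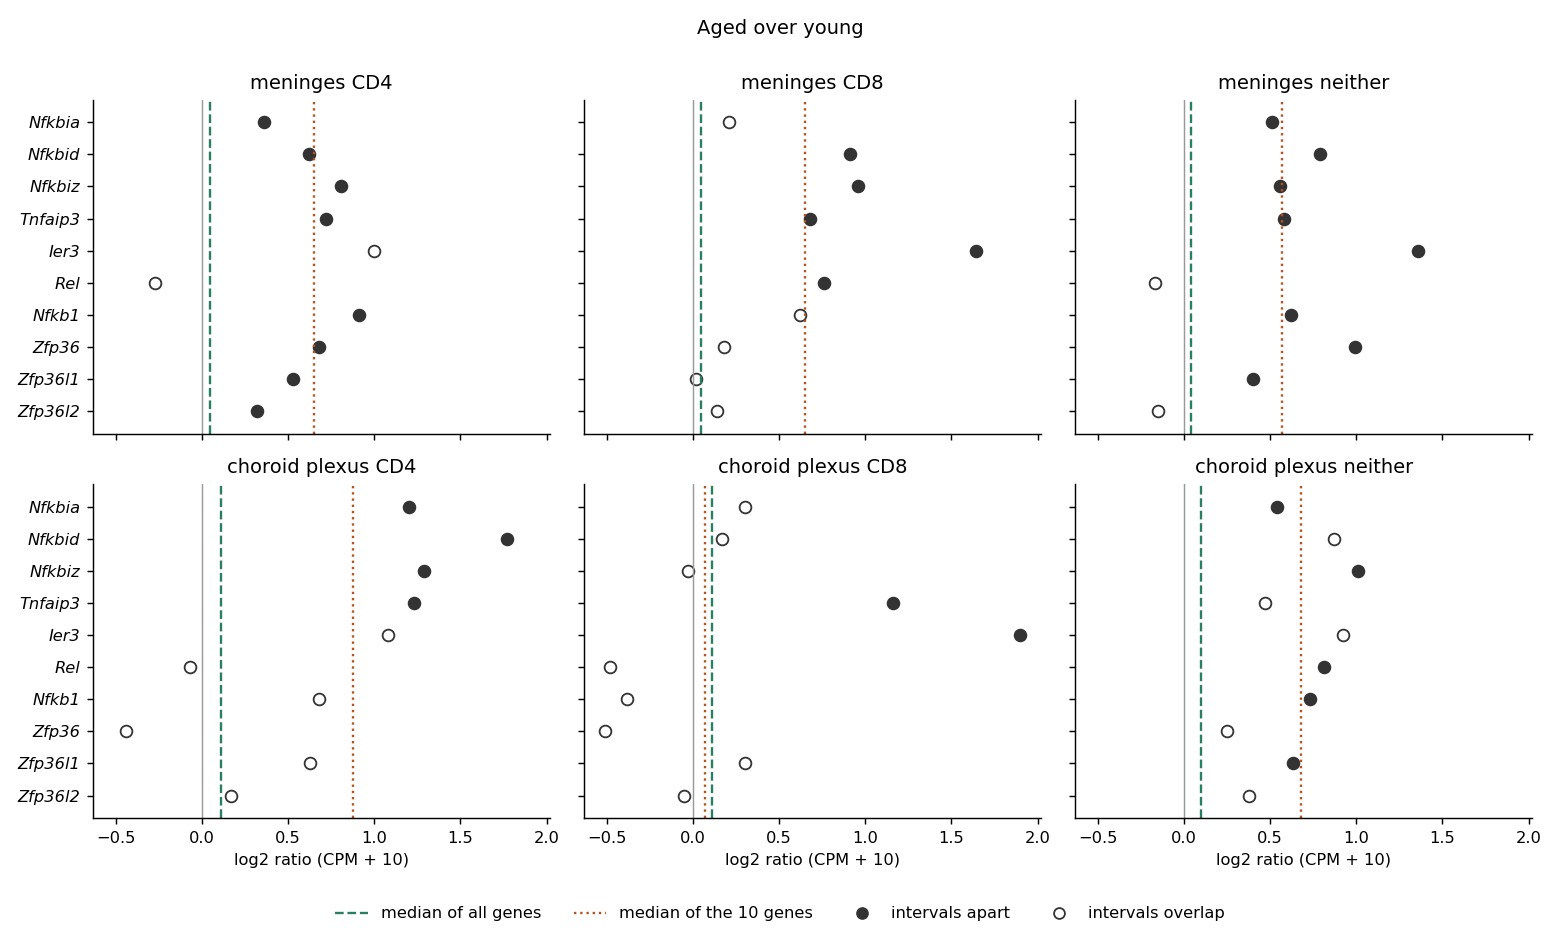
Log2 ratio of aged over young (x axis, from CPM + 10) for each gene (y axis) in 6 comparisons; filled points have intervals apart, open points overlap, and lines mark the medians of the 10 genes and of all genes. Points lie mainly right of 0, furthest for Nfkbid at 1.77 in choroid plexus CD4 and Ier3 at 1.9 in choroid plexus CD8 T cells, and Zfp36 lies at -0.44 and -0.51 in these.

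In the choroid plexus the comparison with age differed by class. In CD4 T cells the 3 IkB family genes and Tnfaip3 were past the rule and higher with age, that is 4 members where 7.27% of genes were. Nfkbia stood at 171 (137 to 212) CPM in young and 407 (362 to 457) CPM in aged CD4 T cells, and Nfkbid at 12.1 (4.43 to 26.3) and 65.1 (47.8 to 86.6) CPM. Tnfaip3 stood at 16.1 (6.95 to 31.7) and 51.3 (36.1 to 70.6) CPM. Nfkbiz rested on 3 and 21 UMIs, a ratio of 4.82 with a counting interval of 1.44 to 25.2. The same 4 members had intervals apart, against 10.3% of genes. Rel (48.3 and 45.7 CPM), Zfp36 (86.6 and 60.9) and Zfp36l2 (179 and 202) overlapped.

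Markers of macrophages were higher in the same pool. The summed level of 7 macrophage genes was 30.2 CPM in young and 193 CPM in aged choroid plexus CD4 T cells, with Adgre1 at 0 in both, and was at most 31.6 CPM in the other pools. With every cell left out that held a UMI of a B cell, macrophage, fibroblast or haemoglobin gene, Nfkbia, Nfkbid and Tnfaip3 stood at log2 ratios of 1.05, 2.16 and 1, and Nfkbiz at 0.62, and 3 members were past the rule. As 1 such UMI was enough, this left out 43.8% of the young and 37.4% of the aged cells of this class. In the same setting the median of the 10 genes was 0.49 in place of 0.88. With each cell thinned to 1000 UMIs, the log2 ratios of Nfkbia, Nfkbid, Nfkbiz and Tnfaip3 were 1.35, 1.88, 1.15 and 1.62, and the count past the rule was 2 in place of 4 because the others then held fewer than 20 UMIs.

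In choroid plexus CD8 T cells the median log2 ratio was 0.07, beside 0.11 for all genes. Nfkbia stood at 128 (101 to 159) and 159 (141 to 179) CPM in young and aged CD8 T cells, Nfkbid at 14.2 and 17.3 CPM, and Zfp36 at 55.2 (38.4 to 76.7) and 35.7 (27.4 to 45.8) CPM, all with overlap. Tnfaip3 was higher with age, with 7.88 (2.56 to 18.4) and 30 (22.4 to 39.3) CPM, and so was Ier3. These were the 2 members past the rule and with intervals apart, where 2.46% and 6.13% of genes were. In T cells with neither marker, Nfkbia, Nfkbiz, Rel, Nfkb1 and Zfp36l1 were higher with intervals apart, against 9.4% of genes, and 1 member, Nfkbiz, was past the rule against 4.62%. The median log2 ratio was 0.68 there and 0.88 in CD4 T cells. Whether the classes differ in their age ratio could not be tested with 1 library per condition.

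Ier3, an immediate early gene tied to cell survival, was low in every young pool, with 3, 7 and 7 UMIs in meningeal and 0, 3 and 6 UMIs in choroid plexus CD4, CD8 and neither T cells. In aged mice it stood at 16.8, 42 and 27.7 CPM in meningeal and at 11.1, 44.9 and 23 CPM in choroid plexus T cells of these classes. In CD8 T cells the aged over young ratio was 6.34 with a counting interval of 2.8 to 16.8 (meninges) and 9.51 with one of 3.13 to 47.1 (choroid plexus). In choroid plexus CD4 T cells, the 0 young UMIs allow up to 7.43 CPM, within the interval of the 8 aged UMIs (4.78 to 21.8 CPM). Intervals were apart in meningeal CD8, meningeal neither and choroid plexus CD8 T cells and overlapped in the other 3. In T cells without a Ccr7 or Lef1 UMI, Ier3 overlapped between the ages in both tissues. It stood at 13.8 (6.63 to 25.4) and 25.7 (20 to 32.5) CPM in the meninges, young first. In the choroid plexus it stood at 15.4 (6.21 to 31.8) and 31.9 (25.2 to 39.7) CPM. In T cells with such a UMI intervals were apart, at 2.57 and 35.2 CPM (meninges) and 1.35 and 30.7 CPM (choroid plexus).

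CD4 and CD8 T cells of the same library were compared next. In the young meninges 5 members were lower in CD8 T cells with intervals apart (Nfkbia, Nfkbid, Tnfaip3, Rel and Zfp36), against 7.29% of genes. In the aged meninges 5 were (Nfkbia, Nfkbid, Tnfaip3, Zfp36 and Zfp36l1), against 8.43%. In the aged choroid plexus 3 were (Nfkbia, Nfkbid and Zfp36l1), against 6.11%, and in the young choroid plexus 0 were, against 4.2%. Nfkbia had log2 ratios of CD8 over CD4 of -0.83 and -0.98 in young and aged meninges and of -1.3 in the aged choroid plexus. Zfp36 was at -1.34 in the aged meninges, with 159 (134 to 187) CPM in CD8 and 417 (378 to 459) CPM in CD4 T cells. Ier3 went the other way in aged mice, with 42 (29.7 to 57.6) against 16.8 (9.78 to 26.9) CPM in the meninges and 44.9 (35.5 to 56.1) against 11.1 (4.78 to 21.8) CPM in the choroid plexus.

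Since naive-like T cells were far fewer in aged mice, each library was also split into naive-like T cells, with a UMI of Ccr7 or Lef1, and other T cells. As 1 UMI was enough, the label depends on depth, and cells of the 2 ages under one label need not be alike in state. Median depths of naive-like and other T cells were 2928 and 2144.5 UMIs in the aged meninges. They were 3444 and 2666.5 UMIs in the aged choroid plexus. In the young meninges 7 members were higher in other than in naive-like T cells with intervals apart, against 12% of genes. Nfkbid stood at 75.9 (65.9 to 87) and 159 (131 to 191) CPM, Rel at 56.8 and 115 CPM, and Zfp36l2 at 309 and 506 CPM, naive-like first. Tnfaip3 stood at 166 (151 to 182) and 126 (101 to 155) CPM. In the young choroid plexus 3 members (Nfkbid, Ier3 and Zfp36l2) were higher in other T cells, against 10.1% of genes. In the aged meninges and the aged choroid plexus 1 member, Zfp36, was, against 4.64% and 3.13%. Nfkbia held 870 (812 to 931) and 854 (819 to 889) CPM in naive-like and other T cells of the aged meninges and 247 (217 to 280) and 255 (236 to 276) CPM in those of the aged choroid plexus.

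Within naive-like T cells of the meninges, 7 members were higher with age, intervals apart, against 8.02% of genes, with a median log2 ratio of 0.68. Nfkbia stood at 586 (558 to 616) and 870 (812 to 931) CPM, Nfkbid at 75.9 and 146 CPM and Nfkbiz at 31.5 and 76.5 CPM, young first. Within other T cells of the meninges, 2 members (Tnfaip3 and Zfp36) were higher, against 4.85% of genes, and Rel and Zfp36l2 were lower, with a median of 0.19. Split by class, the medians in cells without a Ccr7 or Lef1 UMI were 0.13, 0.26 and 0.29 in CD4, CD8 and neither T cells of the meninges, in place of 0.65, 0.65 and 0.57. Tnfaip3 stood at 126 (101 to 155) and 256 (237 to 276) CPM there, and Zfp36l2 at 506 (456 to 561) and 368 (346 to 392) CPM. In naive-like T cells of the choroid plexus, Nfkbia, Ier3 and Zfp36l1 were higher, against 10.5% of genes, and Zfp36 was lower, with 70.7 (57.8 to 85.6) and 33.8 (23.3 to 47.4) CPM. In other T cells there, 1 member, Nfkbia, was higher, with 165 (130 to 207) and 255 (236 to 276) CPM, against 2.77% of genes. Tnfaip3 was lower in the choroid plexus in both states, intervals apart. It stood at 260 and 38.9 CPM in aged naive-like and at 256 and 40.8 CPM in aged other T cells, meninges first. Young CD8 T cells without a Ccr7 or Lef1 UMI formed small pools. In this class, 214 of 254 meningeal and 109 of 160 choroid plexus cells held such a UMI. Between the tissues, the log2 ratio of Zfp36 in the cells without one was 0.47 in place of -1.19. The median of the 10 genes was -0.39 in place of -0.81, and 1 member was past the rule in place of 4. Whether the tissue difference depends on the state was not tested.

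**Figure D4:**
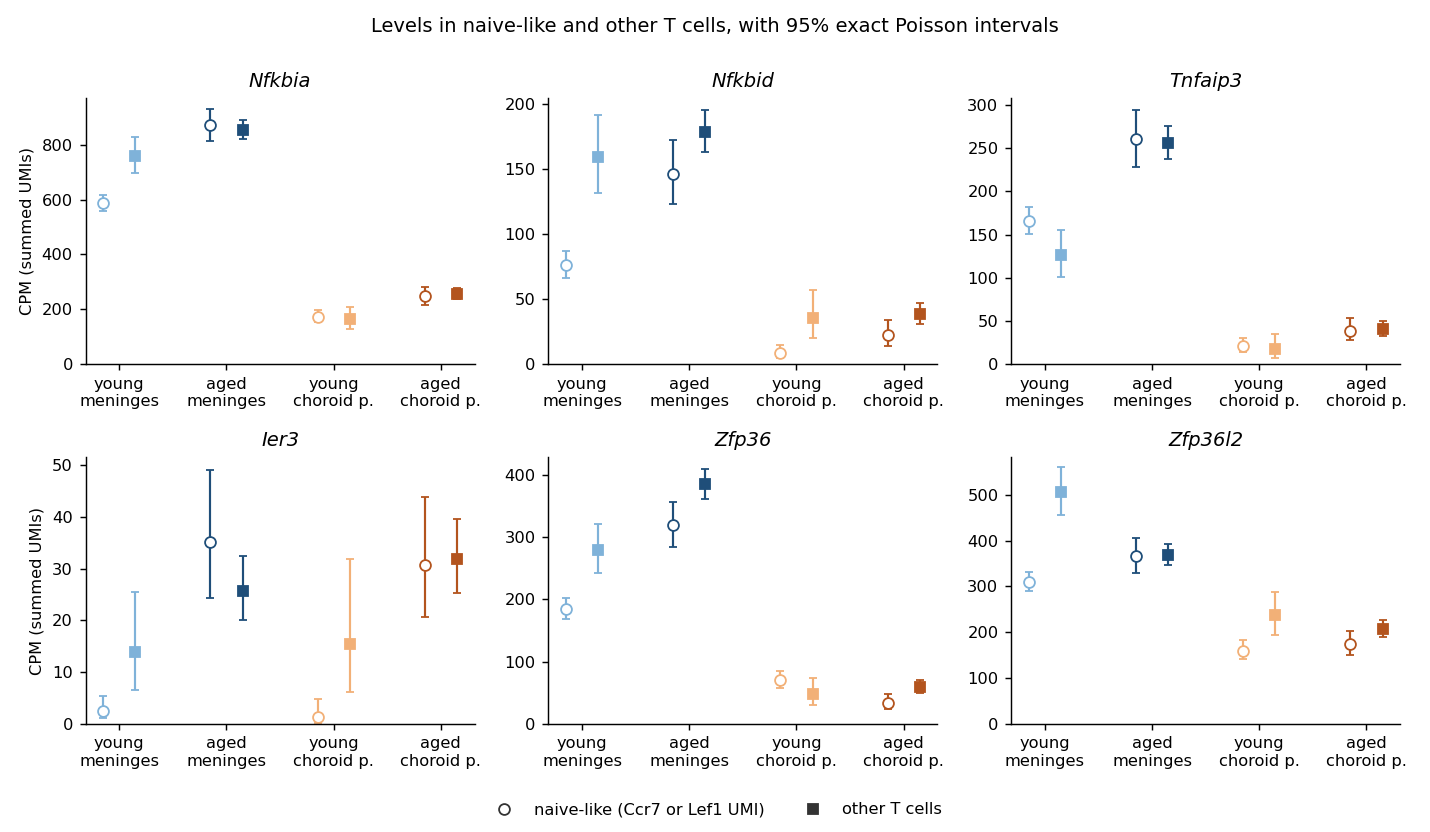
Level (y axis, CPM of summed UMIs, from 0) of 6 genes in naive-like T cells (open circles) and other T cells (filled squares) of the 4 libraries (x axis); bars are exact 95% Poisson intervals. Nfkbia of naive-like T cells is at 586 CPM in the young and 870 CPM in the aged meninges, and both states of the choroid plexus lie at 165 to 255 CPM.

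The share of cells with a UMI was set beside these levels after thinning each cell to 1000 UMIs. These genes are used by nearly all cell types, so no type that should lack them was at hand to show the share that free RNA gives. In meningeal CD4 T cells, Nfkbia had a UMI in 42.7% (36.5 to 49; exact binomial interval) of the young and in 43.5% (38.3 to 48.9) of the aged cells, or 70.5% and 59.9% before thinning, at median depths of 3215 and 2329 UMIs. Its mean was 0.81 and 1.04 UMIs per thinned cell, and 8.7% and 14.3% of the cells held 3 or more UMIs. So the share of cells with Nfkbia overlapped between the ages, while its mean per thinned cell, given without an interval, was higher in the aged library. The log2 ratio of Nfkbia with age in this class was 0.36, but -0.02 without cells with a Fos, Fosb or Egr1 UMI. In cells without a Ccr7 or Lef1 UMI it was -0.09. In the choroid plexus the share was 16.4% (11 to 23) in young and 25.3% (19.8 to 31.5) in aged CD4 T cells. The variance over the mean of Zfp36 in thinned meningeal CD4 T cells was 3.51 in young and 3.2 in aged mice, above the 1.26 and 1.46 of Zfp36l2, so its UMIs were gathered in fewer cells.

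The makeup of the Zfp36 family differed as well. In the meninges Zfp36 gave 34.4% (30.8 to 38.2) of the family's UMIs in young and 39.1% (36.2 to 42.1) in aged CD4 T cells, and 27.5% (25 to 30.1) and 42.6% (40.3 to 44.9) in T cells with neither marker. In the choroid plexus its share was 23.9% (17.9 to 30.8) and 14.6% (10.8 to 19.1) in CD4 and 18% (12.9 to 24.2) and 12% (9.34 to 15.1) in CD8 T cells. Zfp36l1 gave 26.7% (20.4 to 33.8) and 37.1% (31.6 to 42.8) in choroid plexus CD4 T cells, intervals that overlap. The summed level of the family was 578 to 1070 CPM in meningeal pools against 297 to 436 CPM in choroid plexus pools. Zfp36l2 was the largest part in 10 of the 12 pools, with 44.1 to 60.3% of the UMIs, and Zfp36 in the aged meninges in T cells with neither marker. In aged CD4 T cells of that tissue, Zfp36 (39.1%) and Zfp36l2 (38.8%, 35.9 to 41.8) overlapped.

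**Figure D5:**
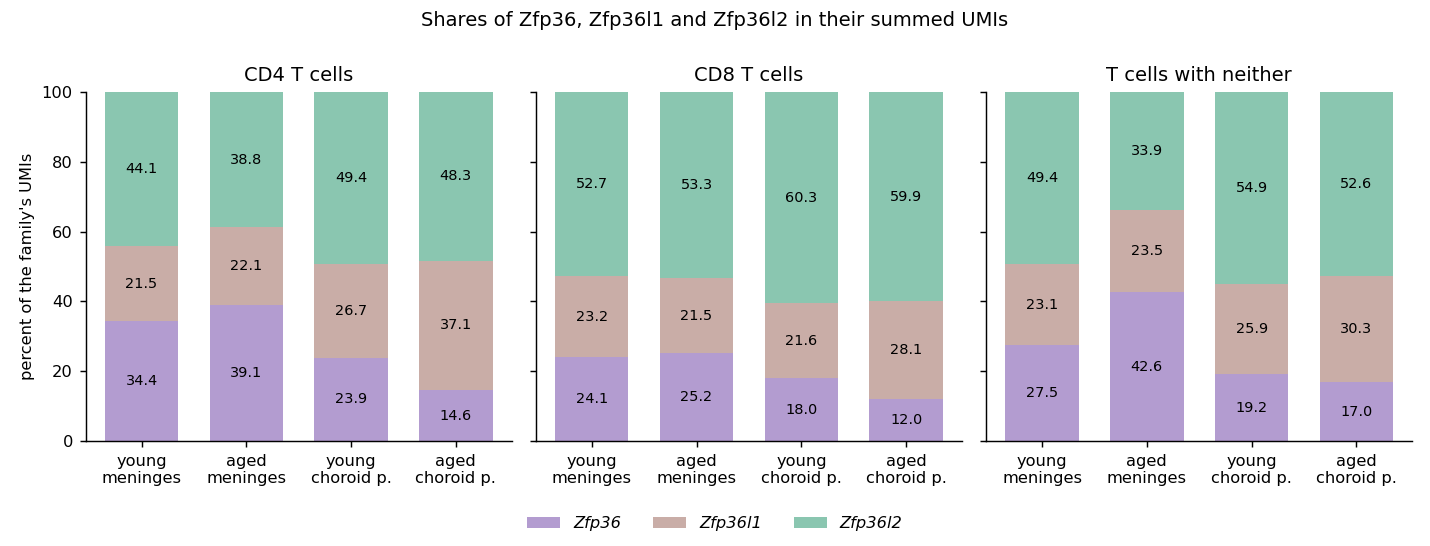
Share (y axis, percent) of Zfp36, Zfp36l1 and Zfp36l2 in the UMIs of the 3 genes together, in each library (x axis) and class (panels), with the value in each bar. Zfp36 holds 42.6% in aged meningeal T cells with neither marker and 12% in aged choroid plexus CD8 T cells.

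The pattern over the 12 pools was compared between genes by the Pearson correlation of log2(CPM + 10), as a description, since the pools share libraries, depth and tissue. Nfkbia, Nfkbid, Nfkbiz, Tnfaip3 and the 3 Zfp36 family genes correlated with each other at 0.85 to 0.98. Rel correlated with these at 0.63 to 0.71, Ier3 at 0.01 to 0.37 and Nfkb1 at 0 to 0.32. Among all other genes with 200 or more UMIs, the most similar to Nfkbia were Junb (0.98), an AP-1 subunit, and Phlda1 (0.98), and those most similar to Tnfaip3 were Junb (0.98) and Dusp1 (0.97), a phosphatase that turns off MAP kinases. Nfkbid was nearest to Nr4a3 (0.98) and Junb (0.97), and Nfkbiz to Gadd45b (0.96) and Tnf (0.95), which encodes the cytokine. Zfp36 was nearest to Dnajb1 (0.97), a heat shock gene, and Fos (0.97), Zfp36l1 to Ubb (0.96), a ubiquitin gene, and Phlda1 (0.95), and Zfp36l2 to Nr4a1 (0.97) and Junb (0.96). The nearest genes of the remaining members were of other kinds. They were Serpina3g (0.92) and Hopx (0.91) for Ier3, Ubl7 (0.92) and Pcgf5 (0.88) for Rel, and Ppp2r2d (0.93) and Nsrp1 (0.89) for Nfkb1.

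Other genes of the pathway, from lists of its parts, were counted by the same rule. Of 8 known NF-kB targets (such as Tnf, Icam1 and Cd83), 3, 4 and 6 were past the rule and higher with age in meningeal CD4, CD8 and neither T cells, and 7, 1 and 6 in those of the choroid plexus. Of all genes, 4.23%, 3.2%, 3.44%, 7.27%, 2.46% and 4.62% were, in this order. Between tissues, 6, 1 and 4 of the targets were past the rule and lower in the choroid plexus in young and 1, 4 and 2 in aged CD4, CD8 and neither T cells, against 3.07%, 1.68%, 1.62%, 1.95%, 0.939% and 1.24% of genes. For age, their median log2 ratios were 0.92, 1 and 1.17 (meninges) and 1.75, 0.56 and 1.48 (choroid plexus). Gadd45b, a stress response gene, stood at 144 (120 to 172) and 405 (367 to 446) CPM in young and aged meningeal CD4 T cells and at 8.05 (2.19 to 20.6) and 54 (38.4 to 73.8) CPM in those of the choroid plexus. Its CD8 levels were 60.5 and 193 CPM in meningeal cells against 3.15 and 34.6 CPM in the choroid plexus, young first. Bcl2a1b and Bcl2a1d, which encode antiapoptotic proteins, were past the rule in CD4 T cells of both tissues. Bcl2a1b stood at 125 and 328 CPM in meningeal and at 38.2 and 184 CPM in choroid plexus CD4 T cells, young first. Bcl2a1d stood at 70 and 187 CPM in the former and at 14.1 and 98.3 CPM in the latter. As near-identical copies, the Bcl2a1 genes cannot be counted apart with certainty.

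The other lists were counted with age in CD4 and CD8 T cells. Of 6 further subunits and inhibitors (such as Rela and Relb), 0 were past the rule in meningeal CD4 and CD8 T cells, and 1, Bcl3, a nuclear IkB protein, was higher in CD4 and in CD8 T cells of the choroid plexus. Of 6 further ubiquitin editing genes, 1, Otulin, was higher in CD4 and CD8 T cells of the meninges. Of 16 genes of mRNA decay (such as Cnot1 and Dcp2), 1 or 0 were higher in these 4 comparisons, and their medians lay between -0.09 and 0.01.

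Genes of other cell types were found in the pools at levels that differed. Haemoglobin genes stood at 13.2 to 483 CPM in the 6 meningeal and at 0 to 4.03 CPM in the 6 choroid plexus pools, and meningeal CD8 T cells held 13.2 CPM of them in young against 452 CPM in aged mice. With cells left out that held a UMI of these or of the B cell, macrophage or fibroblast genes, the tissue medians of the 10 genes were -1.39 to -0.67. This left out 19.2 to 54.3% of the cells of a pool. Summed levels were 65.2 to 263 CPM for the B cell list, 0 to 1.15 CPM for fibroblast genes and 3.95 to 181 CPM for gamma-delta T cell genes, the last highest in aged choroid plexus CD8 T cells. Choroid plexus epithelium genes stood at 177 CPM in young choroid plexus CD8 T cells and at most at 9.8 CPM elsewhere. Their part in the results was not tested beyond the setting given above.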

How the data were processed

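Single-cell RNA-seq of sorted T cells was analysed in 4 libraries (young and aged meninges, young and aged choroid plexus), each pooled from 5 mice. The matrices deposited by the authors hold whole-number UMI counts for each gene in each cell, without normalisation. The submitters' processing notes give Cell Ranger 5.1.0, STAR and mm10, whereas the matrix headers give software version 3.1.0.

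Cells with 200 to 7000 genes and at most 5% mitochondrial UMIs were kept. Scrublet (scanpy 1.11.5, seed 0) then removed 16, 22, 0 and 5 doublets (meninges then choroid plexus, young before aged). None was marked in the aged meninges, so doublets can remain. A T cell needed at least 1 UMI among Cd3d, Cd3e and Cd3g. Cells with both Cd4 and Cd8 UMIs (16 to 33 per library) were left out of the classes. UMIs were summed per class and library and scaled to CPM, with exact 95% Poisson intervals. Log2 ratios were taken after adding 10 CPM. Calls used the rule of size (2-fold, 20 UMIs) or intervals apart, both descriptions and not tests, because 1 library per condition leaves no replicate. Medians over all genes used those with 20 or more UMIs in both groups together. Cells were thinned to 1000 UMIs for shares. Intervals, those of ratios and Zfp36 family shares included, and floors (3 counts) cover counting error only, not the spread between cells or mice. Simulated Poisson counts with known folds were used to test the rule of size. Their changed genes did not include 2-fold differences or genes near 20 UMIs, and their counts did not gather in some cells.

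Named were all 10 members, genes of the pathway lists past the rule in the same direction in both tissues in CD4 or in CD8 T cells, and for each member the 2 genes with the highest correlation over the pools. Bcl3, Otulin and examples of lists were named outside this rule, after their values were seen. A list of upstream kinases and adaptors is not reported here. The members, lists and tests were chosen with earlier results of these data known. Alternatives were the pseudocount, depth, scaling, filters, doublets, weighting, cell state, other cell types and low counts. The alternatives for the comparison of tissues, and the one without cells with a Fos, Fosb or Egr1 UMI, were added after seeing the data. Promoter sequences came from RefSeq (GRCm38.p6) and positions from GENCODE vM21. Python 3.11.15, numpy 2.4.6, pandas 2.3.3, scipy 1.17.1 and matplotlib 3.10.9 were used.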

Additional observations from a re-analysis of the deposited data

Results flagged for a closer look

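Zfp36 of naive-like T cells went in opposite directions with age in the 2 tissues. Its log2 ratio of aged over young was 0.75 in the meninges, with 185 (169 to 202) and 319 (284 to 356) CPM, and -0.88 in the choroid plexus, with 70.7 (57.8 to 85.6) and 33.8 (23.3 to 47.4) CPM. Intervals were apart in both tissues. It was singled out because the only sample of each tissue moved the opposite way, and the difference between the tissues was not tested, since each condition had 1 library. In other T cells the log2 ratios of Zfp36 were 0.45 and 0.24. The naive-like label rests on a UMI of Ccr7 or Lef1 and so depends on depth.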

How the results depend on the processing

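Of 10 alternatives, the one with no minimum of UMIs concerned only the counts past the rule. Under the others, 958 of 1080 member values stayed within the counting interval of their reported value, and 120 lay outside it. The remaining 2 were past the rule and changed sign. The sign differed from the reported one in 51, of which 49 had a reported log2 ratio under 1 either way. Of 228 counts and medians, 28 moved. The medians of the tissue comparisons were below 0 under every alternative, between -1.97 and -0.39. Those of the age comparisons were above 0 except in choroid plexus CD8 T cells, where the lowest was -0.31, in cells without a Ccr7 or Lef1 UMI.

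Counts of members past the rule of size with age changed as follows. With 1 CPM added, they were 1, 3 and 2 in meningeal CD4, CD8 and neither and 3 in choroid plexus neither T cells. With cells thinned to one depth, they were 1 and 2 in meningeal CD4 and neither and 2 and 1 in choroid plexus CD4 and CD8 T cells, where the log2 ratios of Nfkbia, Nfkbid, Nfkbiz and Tnfaip3 (1.35, 1.88, 1.15 and 1.62) and of Tnfaip3 and Ier3 (1.13 and 1.86) stayed above 1 and the lost calls held too few UMIs. Without the cells of highest doublet score, with median-of-ratios scaling, or without cells with UMIs of other cell types, the count in choroid plexus neither T cells was 0. As a mean over cells, it was 1 in meningeal CD4 and 2 in choroid plexus neither T cells, and with no minimum of UMIs 1 in meningeal CD4 T cells. In cells without a Ccr7 or Lef1 UMI, meningeal CD4, CD8 and neither T cells had counts of 1, 2 and 0 and medians of 0.13, 0.26 and 0.29, and choroid plexus CD8 T cells a count of 1. Without cells with a Fos, Fosb or Egr1 UMI, meningeal CD4 T cells had a count of 1 and a median of 0.32, and the tissue count of aged CD4 T cells was 2.

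Tissue medians moved to -1.84 (1 CPM added) and -1.97 (no Ccr7 or Lef1 UMI) in young CD4 and to -1.46 (thinned) in aged neither T cells, and the young CD8 count was 1 without Ccr7 or Lef1 cells. The 2 values past the rule that changed sign were Nfkbiz with age in choroid plexus neither T cells, -0.25 when thinned, and Zfp36 between tissues in young CD8 T cells, 0.47 without Ccr7 or Lef1 cells. Zfp36 with age in meningeal CD8 T cells stood at 2.66 without Ccr7 or Lef1 cells, in place of 0.18. The causes were not tested. Pools of young T cells without a Ccr7 or Lef1 UMI were small in both tissues, and Ier3 and Nfkbiz rested on few UMIs in young mice. The Zfp36 values of 0.47 and 2.66 both used young meningeal CD8 T cells without such a UMI. In that class, 214 of 254 cells held one. No paired analysis was possible because each condition had 1 library and no test was made.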
